A study of Mus musculus with 3 samples.

Results

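The genes described here encode the peptide messengers of neurons and the proteins of the dense-core granules that store, cut and release them. They are 40 genes named by symbol, of 41388 genes in the deposited tables, and all 40 were matched. By role they are 25 peptide precursors, 6 granins, 5 genes of peptide processing and 4 genes of granule release or granule membrane. The rule that names them uses no measured value, although the genes were chosen with earlier results of these data known. RNA came from cells of dorsal root ganglia, which hold the cell bodies of sensory neurons, dissected from mouse embryos at 14.5 days post coitum and sorted by flow cytometry for a Ret-EGFP reporter. Ret is the receptor tyrosine kinase of the GDNF family of ligands. Ganglia of spinal levels T11 to S1 were used, on a C57BL/6 background. The genotype label writes the reporter as the transgene Tg(Ret-EGFP)SJ, whereas the series text describes heterozygotes with EGFP knocked into the Ret locus, so that 1 of the Ret alleles would carry EGFP in every sorted cell. The 3 libraries, A, B and D, form 1 group and there is no control population. Library A pooled 100 ganglia from 5 embryos, 3 of them male and 2 female. Library B pooled 100 ganglia from 6 embryos, 2 male and 4 female, and library D 80 ganglia from 4 embryos, 3 male and 1 female. The spread over libraries is therefore a spread over pools, in which sex ratio, litter and handling cannot be told apart.

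Peptide precursors are made in the endoplasmic reticulum and packed, together with granins, into dense-core granules at the trans-Golgi network. Inside the granule the prohormone convertases Pcsk1 and Pcsk2 cut the precursor at pairs of basic residues, carboxypeptidase E removes the basic residues left at the new end, and the amidating enzyme Pam turns an exposed glycine into a terminal amide. In adult sensory ganglia CGRP and substance P are the classical peptides of small nociceptors, and galanin is known for its increase after nerve injury.

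Precursor sequences from the coding transcripts of GENCODE M21 (build GRCm38) show where these enzymes act, and are printed because the enzymes are described below. Each stretch holds 12 codons and then, in capitals, a glycine codon followed by codons for basic residues, on the coding strand. The second Tac1 stretch is joined across an intron, and the Adcyap1 stretches overlap.
Gal (galanin), minus strand, chr19:3411592-3411636: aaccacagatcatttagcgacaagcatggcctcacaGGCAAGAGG
Cck (cholecystokinin), minus strand, chr9:121490098-121490142: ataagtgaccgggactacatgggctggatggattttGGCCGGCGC
Tac1 (substance P), plus strand, chr6:7556729-7556773: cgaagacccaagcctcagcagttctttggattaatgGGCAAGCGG
Tac1 (neurokinin A), plus strand, chr6:7557740-7559139: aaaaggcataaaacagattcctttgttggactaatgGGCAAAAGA
Adcyap1 (PACAP, short form), plus strand, chr17:93204035-93204079: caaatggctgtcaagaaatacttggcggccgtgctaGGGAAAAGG
Adcyap1 (PACAP, long form), plus strand, chr17:93204068-93204112: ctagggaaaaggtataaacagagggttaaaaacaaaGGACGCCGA
The stretches of Gal, Cck, Tac1 and Adcyap1 share a layout because the search cut them so, a peptide end followed by the amidation and cleavage signal. Such a signal was found in a coding transcript of 16 of the 25 precursors. It was not found in Sst, Nppb, Nppc, Penk, Pdyn, Pnoc, Crh, Ucn or Cartpt. The search was run on the 25 precursors only, so no share over other coding genes can be set beside these counts. It needed more than a single basic codon after the glycine. A missing match therefore does not show that the peptide of a gene is not amidated. A match to these letters is a description and not proof of use: Nts, for example, matched as well, although neurotensin is not known as an amidated peptide.

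The sorted cells expressed most of the gene set. A level of at least 1 TPM (transcript share corrected for gene length) in every library was reached by 31 of the 40 genes, against 12426 of the 41388 deposited genes, which is 30.0%. By role this held for 17 of 25 precursors, 6 of 6 granins, 5 of 5 processing genes and 3 of 4 release genes. A mean of at least 10 TPM was reached by 22 of the 40, against 17.4% of all genes, and a mean of at least 100 TPM by 6 of the 40, against 3.96%. Those 6 were Gal, Cpe, Scg3, Scg5, Chga and Calca. With the length of the longest-coding transcript in place of the deposited length, an alternative chosen after seeing the data, Pcsk2 (140 TPM) and Cartpt (105 TPM) passed as well, which made 8. Below 1 TPM in at least 1 library were the precursors Vip, Nppc, Adm, Npff, Nmu, Tac2, Crh and Ucn and the release gene Ptprn2. In bulk RNA a low level can come from few cells or from little RNA per cell, and these cannot be told apart here.

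Among the precursors, the galanin gene Gal (chromosome 19, 3409919 to 3414472, minus strand) stood far above all others. It had 1199, 1213 and 1585 TPM in A, B and D, a mean of 1332 ± 219 TPM (SD, n = 3, as for every ± below), which placed it at rank 85 of all genes. Its share of the summed TPM of all 25 precursors was 73.0%, 65.2% and 73.6% in A, B and D. In every library it was thus the main peptide transcript, and the next precursor, Calca, was lower in every library. The 25 precursors together summed to 1886 ± 258 TPM.

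Calca, which encodes calcitonin and, by alternative splicing in sensory neurons, alpha-CGRP, ranked second. Calca (chromosome 7, 114631480 to 114636357, minus strand) had 140, 252 and 218 TPM in A, B and D, and a mean of 203 ± 57.6 TPM. Its neighbour Calcb, which encodes beta-CGRP, lies on the other strand of the same region (chromosome 7, 114718643 to 114723365) and had 20.6, 36.3 and 28.8 TPM in A, B and D, a mean of 28.5 ± 7.85 TPM. By TPM both genes were lowest in A and highest in B. On log2 count shares normalised between libraries, without length correction, Calca was 6.27, 7.13 and 7.25 in A, B and D. Calcb was 3.29, 4.11 and 4.11 on that scale. With transcript lengths Calca averaged 362 TPM and Calcb 51.1 TPM. Counts per gene do not tell the calcitonin transcript of Calca from the CGRP transcript.

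The CGRP-coding stretches of both genes are printed because their likeness bears on how reads could be assigned to them. Capitals mark the bases that differ.
Calca, minus strand, chr7:114632470-114632580: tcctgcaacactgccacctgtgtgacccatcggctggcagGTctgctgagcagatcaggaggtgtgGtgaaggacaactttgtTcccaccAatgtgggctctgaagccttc
Calcb, plus strand, chr7:114721994-114722104: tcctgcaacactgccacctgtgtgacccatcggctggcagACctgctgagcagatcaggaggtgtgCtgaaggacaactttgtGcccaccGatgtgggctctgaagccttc
Of 111 bases, 5 differed, so the stretches were 95.5% identical. The longest run shared by the 2 whole transcripts was 61 bases. Reads that fall inside such a run could belong to either gene, and how the counting treated them is not given in the sources used here. The Calca over Calcb ratio is uncertain to that extent. On the log2 scale of TPM it was 2.77, 2.80 and 2.92 in A, B and D, a mean of 2.83 ± 0.08, or 7.09-fold. Ratios within a library were compared with 0 for 12 of 14 planned gene pairs by flipping the signs of the log2 ratios, an exact permutation test, two-sided, in which 3 libraries allow no p below 0.25. The other pairs had under 10 counts in a library. For Calca over Calcb the exact permutation p was 0.25 (Benjamini-Hochberg adjusted over the 12 pairs, 0.273), with a positive ratio in 3 of 3 libraries. No pair can reach 0.05 in this design, and the same p and adjusted p held for each pair below unless another is given.

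Gal exceeded Calca by a log2 ratio of 3.10, 2.27 and 2.87 in A, B and D, a mean of 2.74 ± 0.43 or 6.70-fold. With transcript lengths the mean was 1.99. Tac1, the precursor of substance P and neurokinin A, had 23.3, 26.0 and 47.6 TPM in A, B and D, a mean of 32.3 ± 13.3. Its level stood below that of Calca in every library, with log2 ratios of -2.59, -3.28 and -2.19 in A, B and D and a mean of -2.68 ± 0.55. The deposited length of Tac1 is 3399 bases, against 1230 for its longest-coding transcript, and with transcript lengths its level was 89.2 TPM and the Tac1 over Calca ratio -2.05.

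Cartpt, which encodes the CART peptides, had 106, 87.6 and 106 TPM in A, B and D, a mean of 99.8 ± 10.5, and so was the next precursor after Calca, with little difference between pools. Cck, the cholecystokinin precursor, was at 36.0, 73.1 and 33.5 TPM in A, B and D, a mean of 47.5 ± 22.2. Nts, the precursor of neurotensin and neuromedin N, had 25.5, 44.6 and 45.8 TPM in A, B and D, a mean of 38.6 ± 11.4. Cck was thus high in B only, whereas Nts was low in A only.

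Adcyap1, which encodes PACAP, had 30.7, 31.8 and 21.1 TPM in A, B and D, a mean of 27.9 ± 5.91. Its close relative Vip had 39, 26 and 10 counts in A, B and D, which is 3.37, 2.14 and 0.506 TPM. The log2 ratio of Adcyap1 over Vip was 3.19, 3.90 and 5.38 in A, B and D, a mean of 4.15 ± 1.12, and 3.54 without library D. Vip is a peptide of parasympathetic and some sympathetic neurons as well as of injured sensory neurons, and its levels had the same order over the libraries as the summed sympathetic and chromaffin markers. Those 10 markers, none of them at 0 in all libraries, summed to 11.8, 8.08 and 3.55 TPM in A, B and D, with Dbh at 3.97, 2.10 and 1.35 TPM. Their part in the Vip values was not tested.

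Grp, the gastrin-releasing peptide gene, had 10.2, 13.4 and 11.9 TPM in A, B and D, a mean of 11.8 ± 1.59. Penk, the precursor of the enkephalins, had 5.89, 21.4 and 6.62 TPM in A, B and D, from 73, 279 and 140 counts. Sst, the somatostatin precursor, had 6.17, 21.4 and 5.81 TPM in A, B and D, from 28, 102 and 45 counts. Penk and Sst were each high in library B and about equal in the other libraries. Their means of 11.3 ± 8.77 and 11.1 ± 8.89 TPM therefore rest on B.

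**Figure D1:**
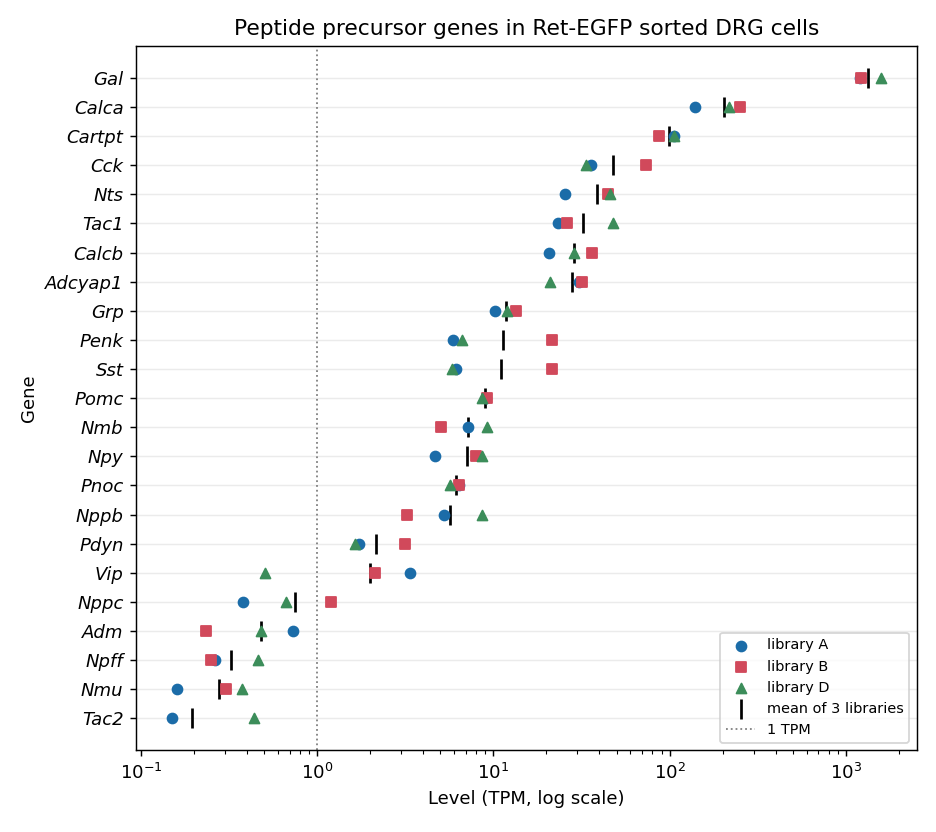
Level of 23 peptide precursor genes in TPM (log axis) in libraries A, B and D, with the mean of the 3 libraries as a black bar and 1 TPM as a dotted line. Crh and Ucn, with 0 counts in every library, are not drawn, nor is the value of 0 of Tac2 in library B. Gal, at 1199 to 1585 TPM, lies to the right of all others, and Penk and Sst have library B far from A and D.

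The other precursors were lower. Pomc, which gives rise to melanocortins and beta-endorphin, averaged 8.95 ± 0.325 TPM, the neuromedin B gene Nmb 7.16 ± 2.10 TPM, the neuropeptide Y gene Npy 7.08 ± 2.12 TPM and the nociceptin gene Pnoc 6.16 ± 0.434 TPM. Nppb, which encodes the natriuretic peptide used by itch neurons in adult mice, averaged 5.69 ± 2.72 TPM and the dynorphin precursor Pdyn 2.17 ± 0.837 TPM. The exons of Nmb share 163 of 793 bases with Sec11a on the same strand, a gene with 3784, 4143 and 7376 counts in A, B and D, so the 43, 32 and 95 counts of Nmb are uncertain. Penk shares 233 of 1634 exon bases with the antisense gene A830012C17Rik, which had 3, 0 and 0 counts in A, B and D.

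At the low end, Nppc (C-type natriuretic peptide) averaged 0.751 ± 0.419 TPM and the adrenomedullin gene Adm 0.481 TPM, from 9, 3 and 10 counts in A, B and D. Npff (neuropeptide FF) averaged 0.326 ± 0.119 TPM and Nmu (neuromedin U) 0.279 ± 0.109 TPM. Tac2, the neurokinin B precursor, had 1, 0 and 5 counts in A, B and D. The hypothalamic releasing hormone gene Crh and the urocortin gene Ucn had 0 counts in every library, which allows up to 3 counts in each. For Crh that limit is 0.300, 0.285 and 0.176 TPM in A, B and D, and for Ucn 0.785, 0.747 and 0.460 TPM. No molecular identifiers are described, so these limits cover counting error only.

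Precursors with the glycine and basic signal printed above carried most of the precursor RNA. They held 92.0%, 92.2% and 93.7% of the summed precursor TPM in libraries A, B and D, a mean of 92.7% ± 0.947. Gal is the largest part of this. Without Gal the share was 70.3%, 77.7% and 76.3% in A, B and D. Other genes were not searched, so these shares have no background beside them. Cartpt, at 5.36% ± 0.945 of precursor TPM, was the highest precursor without the signal.

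The granins, acidic proteins that aggregate inside the granule and help to form it, were high as a group. Scg3, encoding secretogranin III, which binds chromogranin A and the granule membrane, had 345, 321 and 316 TPM in A, B and D, a mean of 327 ± 15.8 (chromosome 9, 75643264 to 75683996, minus strand). Scg5 (chromosome 2, 113776362 to 113829121, minus strand), which encodes the Pcsk2 chaperone 7B2, had 292, 277 and 331 TPM in A, B and D, a mean of 300.0 ± 28.2. By TPM both varied little between pools. On log2 count shares normalised between libraries, Scg5 was 7.41, 7.35 and 7.94 in A, B and D, and Scg3 8.18, 8.08 and 8.39. Chga, encoding chromogranin A, had 216, 282 and 149 TPM in A, B and D, a mean of 216 ± 66.4, so that it was lowest in D. Scg3, Scg5 and Chga made up 34.6%, 31.8% and 22.5% of the summed granin TPM.

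The other granins were lower. Chgb, encoding chromogranin B, had 82.2, 60.0 and 56.6 TPM in A, B and D, a mean of 66.3 ± 13.9. Scg2, encoding secretogranin II, the precursor of secretoneurin, had 29.1, 40.4 and 23.5 TPM in A, B and D, a mean of 31.0 ± 8.59. Vgf, a nerve growth factor-inducible granin, averaged 8.05 ± 2.04 TPM.

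Chga exceeded Chgb by a log2 ratio of 2.23 in library B, the highest, and 1.39 in D, the lowest, with a mean of 1.67 ± 0.48 or 3.19-fold. Scg2 stood below Scg3 by log2 ratios of -3.57, -2.99 and -3.75 in A, B and D, a mean of -3.44 ± 0.40. In both pairs the ratio had the same sign in 3 of 3 libraries.

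Among the processing genes, the carboxypeptidase E gene Cpe (chromosome 8, 64592558 to 64693040, minus strand) was the highest. It had 569, 827 and 938 TPM in A, B and D, a mean of 778 ± 189 and rank 200 of all genes. It made up 84.2% ± 5.35 of the summed TPM of the 5 processing genes. Pcsk2, encoding prohormone convertase 2, had 94.6, 93.8 and 62.3 TPM in A, B and D, a mean of 83.6 ± 18.4, and Pcsk1, encoding prohormone convertase 1/3, had 31.5, 37.2 and 19.7 TPM, a mean of 29.5 ± 8.95. Both convertases were lowest in D, the library in which Cpe was highest.

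Pcsk1 stood below Pcsk2 in every library, with log2 ratios of -1.59, -1.33 and -1.66 in A, B and D and a mean of -1.53 ± 0.17, or 2.88-fold. With transcript lengths the mean was -2.27. Some Pcsk2 exon bases, 260 and 99 of 7910, overlap the antisense genes Pcsk2os1 and Pcsk2os2, which had at most 167 counts in a library against at least 5676 for Pcsk2. The inhibitors and chaperones of the convertases were measured too. Pcsk1n, which encodes the Pcsk1 inhibitor proSAAS, had 14.7, 40.5 and 16.1 TPM in A, B and D, a mean of 23.8 ± 14.5. Its log2 ratio to Pcsk1 was -1.10, 0.12 and -0.29 in A, B and D, a mean of -0.42 ± 0.62 with an exact permutation p of 0.5 (adjusted 0.5), so their order by TPM was not the same in all libraries. As CPM (count share of a library, with no length correction) Pcsk1n stood below Pcsk1 in 3 of 3 libraries, with a mean log2 ratio of -0.99. Scg5 exceeded its partner Pcsk2 by a mean log2 ratio of 1.87 ± 0.47, with values of 1.62, 1.56 and 2.41 in A, B and D. The Pcsk2 gene model is long, and as CPM the Scg5 over Pcsk2 ratio turned to -0.47.

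Pam, encoding the amidating enzyme, had 2.37, 2.28 and 3.59 TPM in A, B and D, a mean of 2.75 ± 0.733, and was the lowest processing gene. Cpe exceeded it by log2 ratios of 7.90, 8.50 and 8.03 in A, B and D, a mean of 8.15 ± 0.32. That size depends on the length used for Pam. Its deposited length is 11892 bases, against 4095 for the longest-coding transcript, with which Pam averaged 7.98 TPM and the log2 ratio was 6.61. As CPM the ratio was 5.63, so Cpe stood above Pam under each of these scales. Pam also shares 188 exon bases with B230216N24Rik on the same strand, which had 256, 149 and 515 counts in A, B and D beside 214, 216 and 553 for Pam, so the Pam counts are uncertain.

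Among the genes of release and granule membrane, Cadps, which encodes the priming factor CAPS1 of dense-core granule exocytosis, had 53.1, 47.2 and 46.9 TPM in A, B and D, a mean of 49.1 ± 3.49. Its paralog Cadps2 averaged 2.87 ± 0.340 TPM. The log2 ratio of Cadps over Cadps2 was 4.13, 4.25 and 3.92 in A, B and D, a mean of 4.10 ± 0.17, and 3.19 with transcript lengths. Ptprn, which encodes the granule membrane protein IA-2, had 33.4, 31.9 and 24.8 TPM in A, B and D, a mean of 30.0 ± 4.59. Ptprn2, which encodes its relative IA-2 beta, averaged 0.953 ± 0.300 TPM. Ptprn exceeded Ptprn2 by log2 ratios of 5.39, 4.62 and 5.02 in A, B and D, a mean of 5.01 ± 0.38, and 3.84 with transcript lengths. In each family the first member carried nearly all of the RNA, in 3 of 3 libraries.

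**Figure D2:**
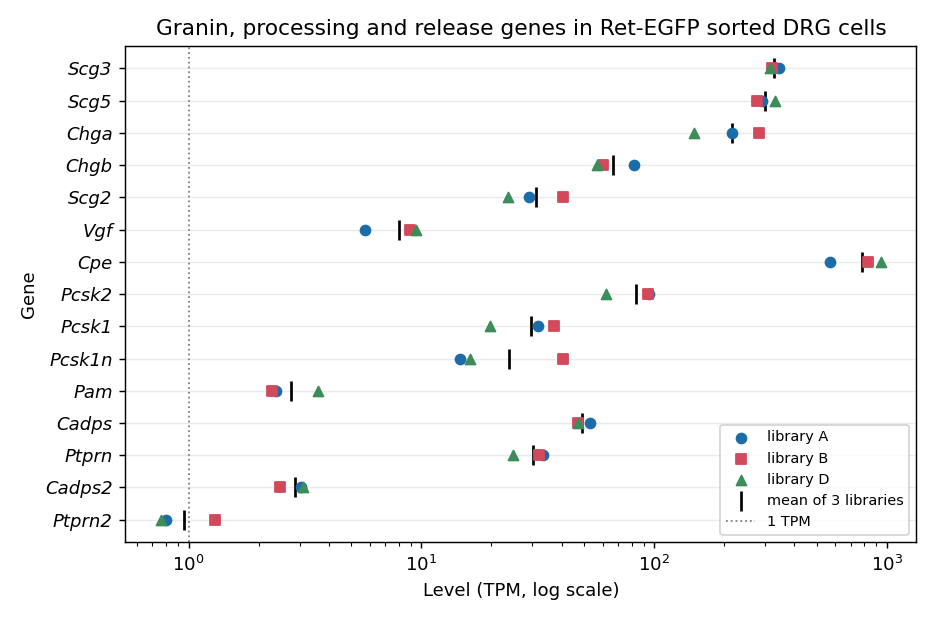
Level of the 6 granin, 5 processing and 4 release or granule membrane genes in TPM (log axis) in libraries A, B and D, grouped by role from top to bottom, with the mean of the 3 libraries as a black bar and 1 TPM as a dotted line. Cpe (569 to 938 TPM), Scg3, Scg5 and Chga lie on the right, and Pam, Cadps2 and Ptprn2 on the left.

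Set against each other, the typical precursor was lower than the typical gene of the granule machinery, that is, granins, processing and release genes together. The median over the 25 precursors was 6.17, 7.99 and 8.59 TPM in A, B and D, against medians over the 15 machinery genes of 33.4, 40.5 and 24.8 TPM. The log2 ratio of the medians was -2.44, -2.34 and -1.53 in A, B and D, a mean of -2.10 ± 0.50, or 4.29-fold lower, with no test since the gene classes were chosen. The ratio was nearest to 0 in D, where the precursor median was highest and the machinery median lowest. By TPM the sums did not show that gap: precursors summed to 1886 ± 258 TPM and machinery genes to 1949 ± 157 TPM. That depends on the length correction. Gal, the highest precursor, averaged 1332 TPM but 387 CPM, and Cpe, the highest machinery gene, 778 TPM and 664 CPM. Gal alone held 70.6% ± 4.67 of the precursor sum. Against the granins alone, whose median was 140 ± 33.9 TPM, the log2 ratio was -4.19 ± 0.54. Against the release genes alone, with a median of 16.5 ± 2.22 TPM, it was -1.12 ± 0.43.

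Other genes of granules and peptides were counted from lists that held no member. Of 33 other granule genes, 26 reached 1 TPM in every library, with a median of 18.3 ± 3.62 TPM, and the highest were the vesicle GTPase gene Rab3a at 695 ± 120 TPM, the protease gene Ctsl at 628 ± 73.1 TPM, Syt4 (synaptotagmin 4) at 468 ± 72.1 TPM, Resp18, a granule gene related to Ptprn, at 264 ± 64.7 TPM and the vesicle GTPase gene Rab3d at 137 ± 34.5 TPM. Of 20 synaptic vesicle genes, of which Rab3a and Dnajc5 are also on the granule list, all 20 reached 1 TPM in every library, with a median of 56.2 ± 13.2 TPM. Genes of at least 1 TPM in every library had a median of 13.5 ± 2.31 TPM.

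Peptide genes on the list outside the set were lower. Set and list were chosen with earlier results of these data known, so this contrast is a description only. Of 38 other peptide genes, 7 reached 1 TPM in every library, against 30.0% of all deposited genes. A further 6 had 0 counts throughout (Avp, Gip, Nps, Npvf, Ppy and Ucn2). The median of the 38 was 0.170 ± 0.0263 TPM, beside 0.0511 TPM over all deposited genes. The highest were the secretin gene Sct at 37.6 ± 9.30 TPM and Agrp, a melanocortin antagonist, at 15.3 ± 3.80 TPM. Trh (7.45 ± 2.83 TPM), Gast (3.93 ± 1.59 TPM) and Pyy (3.37 ± 0.704 TPM) followed. Sct was thus at a level like that of Nts, at 38.6 TPM.

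Receptors for these peptides had a lower median than the precursors. Of 38 peptide receptor genes, 10 reached 1 TPM in every library, close to the 30.0% share of all deposited genes. Sstr3 and Vipr1 had 0 counts throughout. The receptor median was 0.491 ± 0.169 TPM, beside 0.0511 TPM over all deposited genes. The nociceptin receptor gene Oprl1 was the highest at 54.1 ± 14.0 TPM, while its ligand gene Pnoc averaged 6.16 TPM. Npr2, which encodes the receptor of C-type natriuretic peptide, averaged 12.0 ± 2.66 TPM. Cckar (cholecystokinin) averaged 7.67 ± 3.04 TPM, Npy1r (neuropeptide Y) 7.26 ± 3.44 TPM and Npffr2 (neuropeptide FF) 3.24 ± 1.59 TPM.

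**Figure D3:**
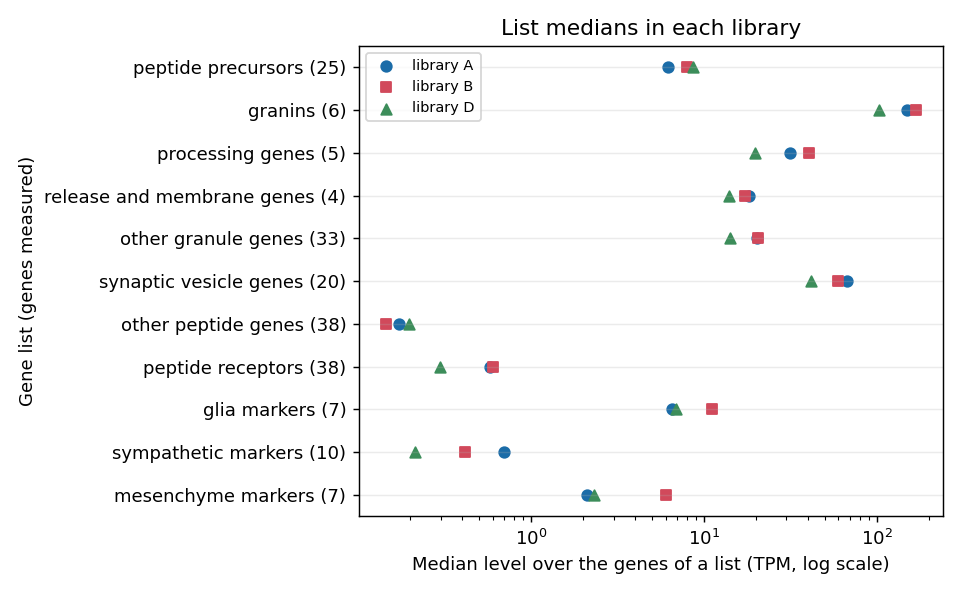
Median TPM over the genes of each list (log axis) in libraries A, B and D, with the number of genes measured in brackets. Granins have the highest medians (103 to 169 TPM), precursors lie between 6.17 and 8.59 TPM, and other peptide genes and peptide receptors lie below 1 TPM.

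The promoters of the gene set were searched for the cAMP response element, TGACGTCA, the binding sequence of CREB, because several of these genes are textbook cAMP-responsive genes. The windows, from RefSeq (GRCm38.p6), run from 250 bases before to 50 after a gene's start and cover 32 of the 40 genes, with 36 windows. The element reads the same on both strands. It was found in 6 of the 36 windows (16.7%), against 588 of 32851 windows of all genes (1.79%), a description with no test. The genes were Cartpt, Chgb, Pcsk1, Scg2, Sst and Ucn. The search did not cover Calcb, Cpe, Crh, Grp, Npff, Penk, Pnoc and Vgf. The TATAAA box, searched on both strands, was in 6 of 36 windows (16.7%), against 13.6% of all windows.

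The stretches around the element in the 5 of these genes that were detected are printed with the element in capitals, on the gene's strand.
Cartpt, minus strand, chr13:99900768-99900815: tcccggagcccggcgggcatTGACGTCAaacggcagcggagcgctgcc
Chgb, plus strand, chr2:132781550-132781597: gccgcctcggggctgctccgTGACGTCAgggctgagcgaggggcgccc
Pcsk1, plus strand, chr13:75089759-75089806: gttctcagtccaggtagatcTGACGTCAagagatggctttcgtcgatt
Scg2, minus strand, chr1:79440067-79440114: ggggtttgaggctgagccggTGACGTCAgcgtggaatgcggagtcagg
Sst, minus strand, chr16:23890865-23890912: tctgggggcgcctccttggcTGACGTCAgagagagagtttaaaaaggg
The element began 112 bases before the RefSeq start in Cartpt, 72 in Chgb, 78 in Pcsk1, 68 in Scg2 and 48 in Sst. The gene models used for the counts start further upstream in Chgb (132781278, plus strand) and Scg2 (79440120, minus strand). In these genes the element lies inside the counted gene. The levels of these genes covered a wide range, with 99.8 TPM for Cartpt and 11.1 TPM for Sst. Ucn, whose element began 44 bases before its start, had 0 counts. The libraries hold no measure of factor binding.

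Variation between the 3 pools was tested with an edgeR goodness-of-fit test for each gene, which asks whether a gene differs between libraries by more than genes of its level usually do. Of 13530 genes tested, 24 (0.177%) had a Benjamini-Hochberg adjusted p under 0.05. Of the 40 genes of the set, 32 passed the filter on low counts and 0 were called, by edgeR and also with DESeq2 dispersions. An unadjusted p under 0.05 was found for 4 of the 32, against 827 of 13530 genes (6.11%). The common biological coefficient of variation was 30.3%.

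Those 4 genes were Penk, Tac1, Sst and Pcsk1n. Each p below is that of the goodness-of-fit test over all libraries. It does not test the named library against the others, which was picked after seeing the values. Penk was higher in library B than the mean of A and D by 1.60 on the log2 CPM scale (edgeR adjusted p = 0.619). Sst was higher in B by 1.62 (edgeR adjusted p = 0.746) and Pcsk1n by 1.23 (edgeR adjusted p = 0.815). Tac1 was higher in library D than the mean of A and B by 1.28 (edgeR adjusted p = 0.736). None of these genes passed the adjusted threshold. Over the alternatives the goodness-of-fit adjusted p of Penk ranged between 0.271 and 0.997 and of Sst between 0.347 and 0.997. For Pcsk1n it ranged between 0.407 and 0.997 and for Tac1 between 0.385 and 0.9996.

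Library B, in which Penk, Sst and Pcsk1n were highest, was also the highest in mesenchyme and pericyte markers. These 7 markers, none at 0 in all libraries, summed to 19.2, 70.6 and 19.3 TPM in A, B and D. Its 7 Schwann precursor and satellite glia markers summed to 404 TPM, against 253 in A and 470 in D, with Sox10 at 4.67, 11.1 and 6.86 TPM in A, B and D. The part of these cells in the 3 genes was not tested. Spinal cord neuron markers were near 0, with sums of 0.141, 0.267 and 0.159 TPM over 7 genes in A, B and D and 0 counts of Lbx1, Mnx1 and Olig2. The 10 sensory neuron markers summed to between 23630 and 28529 TPM. The 6 macrophage markers summed to at most 17.3 TPM and the 6 endothelium markers to at most 4.64 TPM, both in A. The 7 erythroid markers, none at 0 in all libraries, summed to 185, 103 and 358 TPM in A, B and D, and so were highest in D, as Tac1 was. Their part in the Tac1 values was not tested.

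**Figure D4:**
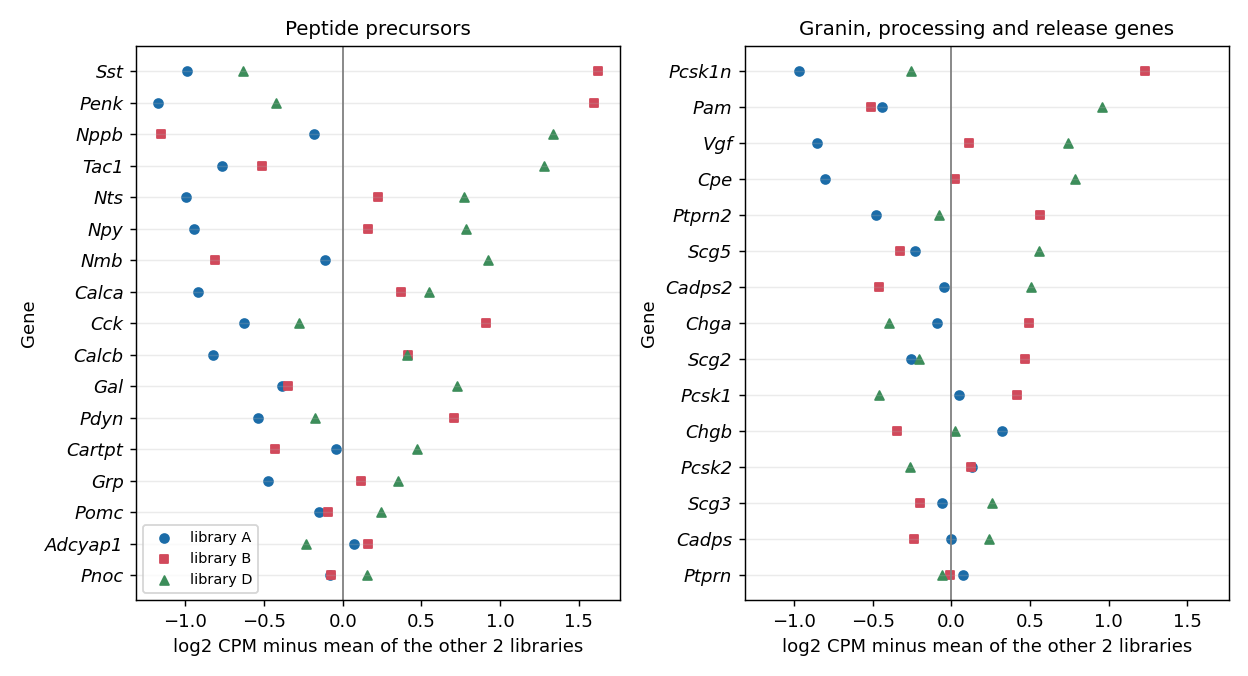
Difference of each library's log2 CPM from the mean of the other 2, for the 17 precursors (left) and 15 granin, processing and release genes (right) that passed the filter, ordered by the largest difference. Sst, Penk and Pcsk1n have library B furthest to the right and Tac1 and Nppb library D, while Ptprn, Cadps and Scg3 lie close to 0 in all libraries.

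The spread between pools is given here by role, with no test. The largest absolute log2 difference of a library from the other 2 had a median of 0.91 over 17 precursors and 0.49 over 15 machinery genes, beside 0.59 over all genes tested. Among the precursors with large differences, Sst had 28 to 102 counts and Nppb 20 to 87 counts in a library. Others had more counts, with 600 to 2092 for Tac1 and 227 to 697 for Nts. Which library was highest depended on the scale. On normalised log2 CPM, 3, 11 and 18 of the 32 genes were highest in A, B and D, against 34.3%, 28.7% and 37.0% of all genes tested. By TPM, an alternative chosen after seeing the data, 6, 14 and 12 were, against 43.5%, 37.2% and 19.3%. For the 17 precursors the counts in A, B and D were 0, 6 and 11 on log2 CPM but 1, 9 and 7 by TPM, so that the library with most of them turned from D to B. For the 15 machinery genes they were 3, 5 and 7 on log2 CPM and 5, 5 and 5 by TPM. Library D is also the most deeply sequenced, with 29061086 counts in all against 20181558 in A and 20355302 in B, and log2 CPM values are scaled for that.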

How the data were processed

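The data are 3 RNA-seq libraries. Per the labels' protocols, 10 ng of RNA went through SMARTer Ultra Low Input cDNA amplification, and library PCR had 12 cycles. The authors deposited a whole-number count per Ensembl gene, with gene lengths. Subread, featureCounts 1.4.5 and build GRCm38.p2 are named in the submitters' processing notes. The sources used here give no strand or multiple-match settings, so reads of a gene and of an overlapping or antisense gene cannot be told apart. The authors also deposited CPM, equal to the count scaled to the library total. Their deposited RPKM equals that CPM per kilobase of gene length. TPM was computed from counts and lengths over all genes. Coordinates are 1-based, as deposited.

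The members and lists were chosen with earlier results of these data known. Every member is named, with library values for those of at least 10 TPM on average, and of the other granule, peptide and receptor lists the 5 highest by mean TPM are named. Galr3 and Kiss1 were not matched.

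Variation between libraries used edgeR 4.0.16 (R 4.3.3; TMM, filterByExpr, intercept-only fit with trended dispersion, deviance goodness-of-fit, Benjamini-Hochberg), and checked on simulated data. Alternatives included DESeq2 1.42.0 dispersions, other scales, thresholds and filters, and leaving out each library. Python 3.11.15, numpy 2.4.6, pandas 2.3.3, scipy 1.17.1 and matplotlib 3.10.9 were used.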

Additional observations from a re-analysis of the deposited data

How the results depend on the processing

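No pairing of samples between groups was possible because there is 1 group, and the pairs below are pairs of genes within a library. The number of expressed members was between 26 and 33 under 8 alternatives, within 1.5 times the 31 reported. The precursor over machinery log2 ratio stayed below 0 under all 11 alternatives run. It moved to -4.12 for median CPM, -2.62 for mean log2(TPM + 0.1), -1.57 for members of at least 1 TPM, -4.19 against granins alone and -1.12 against release genes alone. Without 1 library it lay between -2.39 and -1.94. Among 12 pairs and 60 alternatives, 1 turned in direction, Scg5 over Pcsk2 as CPM (-0.47), where the longer Pcsk2 model is not corrected for. A ratio with the same sign in every library was found for 11 of 12 pairs, and for 12 of 13 with a minimum of 3 counts, which added Nppb over Nppc (log2 2.96 ± 1.34). Tac1 over Tac2 could not be computed, Tac2 having 0 counts in B. Genes called for variation numbered 57, not 24, with a trend in gene length removed, and between 2 and 27 without 1 library, lowest without B, and 7 without A. No member was called under the 10 alternatives, and 1 to 4 members had an unadjusted p under 0.05. With 3 libraries no paired ratio can reach an exact p under 0.25, and genes of few counts, such as Nppc, Adm, Npff, Nmu and Tac2, are limited by depth.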
